A study of Homo sapiens with 4 samples.

Results

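Clone 4 is the set of cells that the deposited allele table assigns to lineage group 4, a clone called by the authors from the set of integration barcodes (intBCs) that its cells share. It held 2484 of the 34557 cells of the series, with 676, 820, 460 and 528 cells in plates 00, 01, 10 and 11, and was marked by 9 intBCs. With 3 cut sites behind each intBC, every cell could report 27 characters. Of the detected characters, 75.0% carried an indel, and a character had a median of 50 different indels, called states here. The cells fell into 2 large groups that differed in the leading indels of several intBCs. Of the 188 states carried by at least 20 cells, 60 (31.9%) were found on 1 side of the first plate split only. Over the 9 clones with at least 20 cells on each side this share was 31.0%, so Clone 4 lay near it.

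All cells were A549, a human lung adenocarcinoma line, that carried a constitutively expressed Cas9 from a lentivirus, Target Sites integrated by serial lentiviral infection in the transcript of GFP, and a lentivirus with 3 sgRNAs, 1 for each cut site, whose single mismatches slow the cutting. The infected cells were grown together as a pool of 11 clones, split at random into 2 plates and split again into 4, and the Target Site transcripts of each final plate were read as 1 single-cell RNA-seq library. No arm was left unedited, so no background was measured in cells without Cas9 cutting. Only the Target Site amplicon is in the table, so the identity of the cell line could not be checked against its transcriptome. In the plate names, the first digit is taken here to give the first-split plate (0 or 1), and the second digit the plate of the later split.

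In such a recorder, Cas9 cuts the integrated sequence, and error-prone end joining leaves an insertion or a deletion that daughter cells inherit. An edited site is usually no longer cut, so indels accumulate over cell divisions and cells with a recent common ancestor share more of them. A pair of cuts made at neighboring sites can remove the sequence between them, which writes 1 indel over several characters and erases what they held. An intBC can also be missing from a cell, because its transcript was not captured, because the site was silenced or because a deletion removed the sequence that is read.

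The 9 intBCs are random 14-base tags built into the Target Site. They are shown because they name the integrations by which the clone was called, and they are lettered by the number of cells in which they were detected, from 2284 cells for intBC A to 656 cells for intBC I.
intBC A: GATGGACATTGGGG
intBC B: TCCGGCCATTCCCC
intBC C: GCGTCCCTCATTCG
intBC D: CGACAATGTAGTTG
intBC E: GACTTTAATGTACA
intBC F: TGCCTCGAAGCACG
intBC G: CGCGCGTCCGGGTC
intBC H: AATGCGCTCTGCCC
intBC I: ACCTTGAAGATATT

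The uncut cut sites and the indels on which the results turn follow, each as the 5 bases on either side of the event as the table gives them. Capitals mark the bases to the right of the cut or of a deletion, or the inserted bases of an insertion, and positions are those of the table, counted along the Target Site reference.
cut site 1, uncut: ccgaaAAATG
cut site 2, uncut: gatatCTCTG
cut site 3, uncut: attcgCGGAG
deletion of 54 bases at 113: ccgaaCTCTG
deletion of 54 bases at 167: gatatCGGAG
deletion of 108 bases at 113: ccgaaCGGAG
deletion of 53 bases at 167: gatatGCGGA
deletion of 50 bases at 113: ccgaaATATC
deletion of 51 bases at 112: gccgaATATC
deletion of 2 bases at 166: cgataTCTGG
deletion of 6 bases at 164: aacgaTGGTT
deletion of 6 bases at 218: ttaatGGGAC
insertion of 1 base at 111: cgccgAaaaaa
insertion of 1 base at 166: cgataTtctct
insertion of 3 bases at 167: gatatGAActctg
The first 3 deletions join the left flank of 1 uncut cut site exactly to the right flank of another: cut site 1 to 2, 2 to 3 and 1 to 3. They are called exact excisions below.

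The libraries held 53748, 56716, 28748 and 33234 UMIs of Clone 4 in plates 00, 01, 10 and 11, with a median of 67, 60, 55 and 58 UMIs per cell. A detected intBC rested on a median of 9 UMIs. A cell reported a median of 6 intBCs, 175 cells (7.05%) reported all 9, and 3 cell barcodes of the clone occurred in more than 1 library. Cells of a clone share ancestors and are not replicates, and each final plate gave 1 library. Intervals given for shares are therefore exact Clopper-Pearson 95% intervals that cover counting error only, and comparisons between plates or clones were made over the 4 libraries. The limit given beside a count of 0 is not such an interval. It is the share that 3 cells would make of the cells with the intBC.

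Cut site 2 was the most edited of the 3. It carried an indel in 91.0% of detected characters, against 65.1% at cut site 1 and 68.9% at cut site 3. The shares at cut site 2 were 89.8%, 89.3%, 93.9% and 92.8% in plates 00, 01, 10 and 11. At cut site 1 they were 67.1%, 67.7%, 62.0% and 60.7%, and at cut site 3 they were 70.3%, 70.3%, 67.6% and 66.0%. Cut site 2 was the highest of the 3 in each library. An indel listed at several cut sites counts at each of them. Such indels held 67.9% of edited characters at cut site 2, against 43.4% at cut site 1 and 52.5% at cut site 3. Their part in the order of the cut sites was not tested. Editing of cut site 2 exceeded 85% in 8 of 9 intBCs, whereas cut sites 1 and 3 exceeded it in 2 intBCs each.

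The 27 characters ranged from 36.0% edited (95% interval 33.3 to 38.8%, n = 1211 cells) at cut site 1 of intBC H to 100% at 3 characters, cut sites 2 and 3 of intBC D and cut site 1 of intBC G. Of the 12 characters over 85%, the 2 of intBC D did not vary within the clone: all 1957 cells with intBC D carried the same deletion of 54 bases at 167. Cut site 1 of intBC G was edited in all 1605 cells with the intBC but held 12 states. Cut site 2 of intBC B was edited in 99.8% of 2131 cells with 13 states and that of intBC H in 99.9% of 1211 cells with 14 states. Full editing therefore came with anything from 1 to 14 states among these characters.

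**Figure D1:**
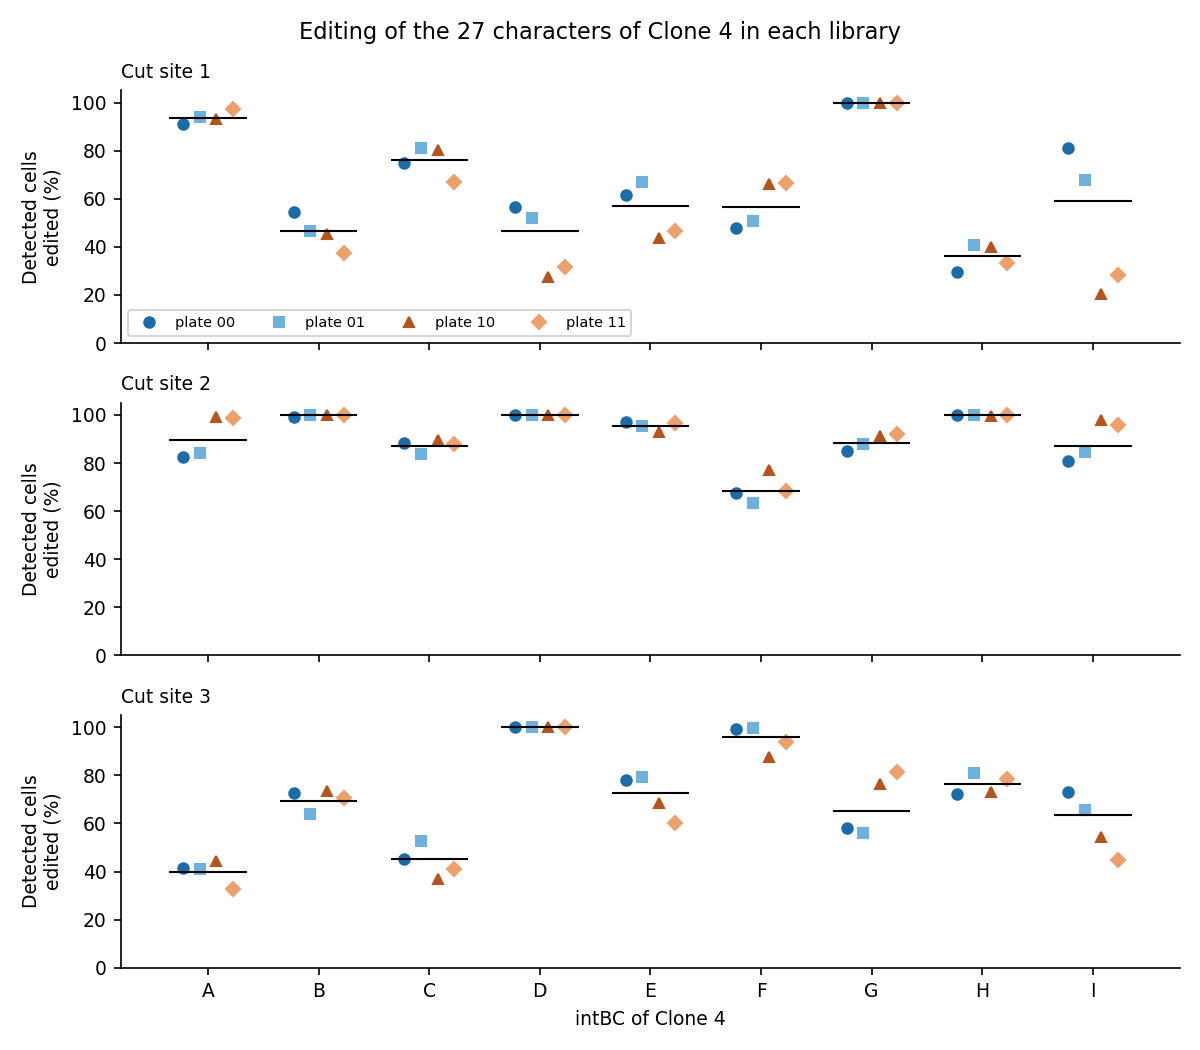
Percent of cells edited at each of the 27 characters of Clone 4, among cells in which the intBC was detected, with 1 panel per cut site, 1 symbol per library and a black line for all cells. Cut site 2 lies above 85% for every intBC but F (68.3%), and the libraries of plates 10 and 11 sit below those of plates 00 and 01 at cut site 1 of intBC I (20.4% and 28.1% against 81.3% and 67.8%).

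Some characters were edited to different extents on either side of the first split. Cut site 1 of intBC I was edited in 81.3% and 67.8% of cells in plates 00 and 01 and in 20.4% and 28.1% in plates 10 and 11. Cut site 1 of intBC D was edited in 56.5% and 52.0% against 27.5% and 31.6%. The opposite order was seen at cut site 3 of intBC G, with 58.0% and 55.9% in plates 00 and 01 and 76.3% and 81.5% in plates 10 and 11. In these 3 characters the libraries of the first-split plates did not overlap, and they were picked after the values were seen. They are examples only, since most of the 27 characters did not overlap, so lack of overlap does not mark these 3. Cut site 2 of intBC A, for instance, was edited in 82.7% and 84.2% against 99.1% and 98.6%. Over all characters, plate 0 was 1.91 percentage points above plate 1 (75.7% and 75.8% against 74.5% and 73.2%). The exact two-sided permutation test over the 4 libraries gave p = 0.333, the smallest value that 2 libraries against 2 allow.

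The number of states also differed widely between characters. Cut site 2 of intBC F held the most, 145 states in 1690 cells, and its most frequent state, the deletion of 50 bases at 112 listed at cut sites 1 and 2, took 6.15% of the cells. Cut site 2 of intBC G held 112 states and cut site 2 of intBC C 109. When each character was reduced to the number of states expected among 100 detected cells, these 3 kept the highest values, 30.9, 22.0 and 22.1, whereas cut site 2 of intBC B came to 3.86 and cut site 2 of intBC D to 1. Across the clone, 843 different indel strings made 1492 states, 189 strings occurred in at least 2 intBCs, and 516 (61.2%) were also listed in another clone.

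Indels that spanned more than 1 cut site made up 56.1% of edited characters, and 52.5% lay in a deletion over 2 cut sites and 3.61% in a deletion over all 3. Counted once per allele, they were 38.5% of indels. The share was 59.2% and 58.4% in plates 00 and 01 and 52.6% and 51.1% in plates 10 and 11, so the libraries of the first-split plates did not overlap. Insertions ran the other way, at 9.52% and 10.0% of edited characters in plates 00 and 01 and at 17.6% and 17.8% in plates 10 and 11. Insertions were concentrated at cut site 1, where they made up 28.2% of edited characters, against 7.18% at cut site 2 and 5.64% at cut site 3.

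**Figure D2:**
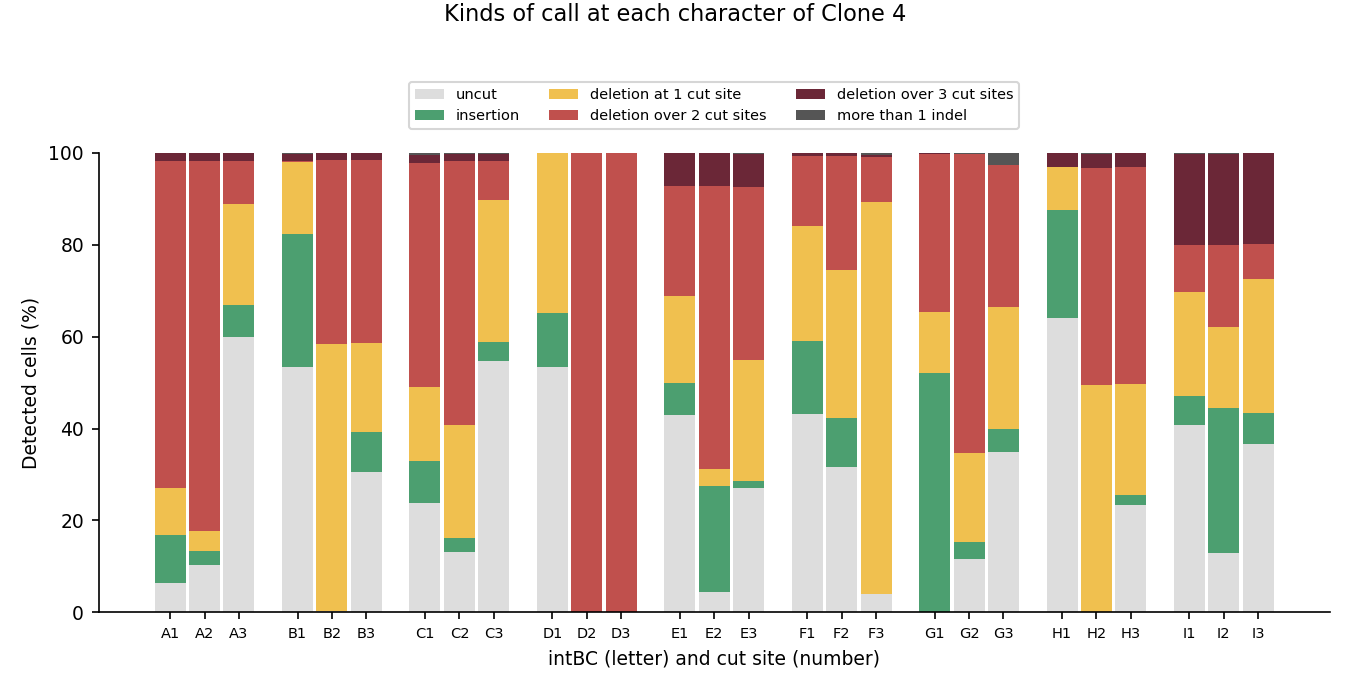
Kinds of call at each of the 27 characters of Clone 4, as stacked shares of the cells in which the intBC was detected, with the letter of the intBC and the number of the cut site on the x axis. Deletions over 2 cut sites fill cut sites 2 and 3 of intBC D (100%), and deletions over 3 cut sites take 19.8% of the cells with intBC I.

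The excision from cut site 2 to 3 had the most calls of any indel of the clone. It was found in 7 of the 9 intBCs, fewer than the insertion of 1 base at 111, found in all 9, and 2421 cells (97.5%) carried it in at least 1 intBC, with intBC D fixed for it. Outside intBC D it took 39.7% of cells with intBC B, 37.6% with intBC E and 28.2% with intBC G. The excision from cut site 1 to 2 was carried by 60.5% and 59.6% of cells in plates 00 and 01 and by 22.0% and 20.8% in plates 10 and 11, in 6 intBCs. The excision of all 3 sites was rarer, in 216 cells (8.70%), and only in intBC I (13.1%) did it reach 5% of the cells with an intBC.

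In all, 19 indels over more than 1 cut site were carried by at least 5% of the cells with their intBC. After the excisions, the most frequent were the deletion of 50 bases at 113 in intBC A (1447 cells, 63.4%), the deletion of 51 bases at 112 in intBC C (748 cells, 36.9%) and the deletion of 53 bases at 167 in intBC H (572 cells, 47.2%). The share of cells with such an indel in the allele ran from 25.4% for intBC F and 37.7% for intBC I to 82.2% for intBC A and 100% for intBC D. In intBCs E and I the share was much higher in plate 0: 92.4% and 87.5% against 41.0% and 31.5% for intBC E, and 58.0% and 48.5% against 1.94% and 2.08% for intBC I. In intBC A the order was the opposite, with 72.3% and 71.4% in plates 00 and 01 and 98.1% and 97.3% in plates 10 and 11.

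The 5 states carried by most cells belonged to 3 intBCs. They were the excision at both cut sites of intBC D (1957 cells), the deletion of 50 bases at 113 at cut sites 1 and 2 of intBC A (1447 and 1446 cells) and the deletion of 6 bases at 218 at cut site 3 of intBC F (1439 cells, 85.1%). The last of these was found in 94.9% and 97.6% of cells with intBC F in plates 00 and 01 and in 65.9% and 73.8% in plates 10 and 11. A deletion of the same size and position but with other flanks was carried by 25 cells with intBC A. Matched together with its flanks, the deletion in intBC F was the only one of the 20 indels with at least 200 calls that no other clone listed. Its right flank is GGGAC, whereas the Target Site sequence in the paper has AGGAC after the deleted bases. Whether other clones listed the deletion with the unchanged flank was not counted. In contrast, the insertion of 1 base at 111 occurred in all 9 intBCs and in 75 intBCs of 9 other clones, and the deletion of 2 bases at 219 in 7 intBCs of Clone 4 and 79 intBCs of all 10 other clones.

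At the remaining characters the leading states were less dominant. At cut site 1 the insertion of 1 base at 111 was the most frequent state of intBCs B (25.7%), G (52.1%) and H (23.4%), and the deletion of 2 bases at 111 led in intBC F (19.4%). At cut site 3 the deletion of 2 bases at 219 led in intBCs A (9.68%) and C (13.9%). At cut site 1 of intBC D a deletion of 29 bases at 104 took 28.5% of cells, at 38.3% and 35.6% in plates 00 and 01 and at 8.93% and 9.30% in plates 10 and 11.

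Whole alleles, the triplets of calls behind an intBC, repeated the same contrast. IntBC D had 45 alleles in 1957 cells, and the most frequent, uncut at cut site 1 with the excision of cut sites 2 to 3, took 53.3%. IntBC A had 235 alleles, led at 47.1% by the deletion of 50 bases at 113 with cut site 3 uncut. IntBC C had the most, 376 alleles, led at 28.1% by the deletion of 51 bases at 112 with cut site 3 uncut. In intBC G, the insertion of 1 base at 111 with the excision of cut sites 2 to 3 led at 23.4%, but it took 55.0% and 66.2% of cells in plates 10 and 11 and 2.64% and 0.538% in plates 00 and 01. The leading alleles of intBCs B, E, F, H and I took 17.4%, 28.3%, 13.6%, 28.2% and 13.1% of their cells. Alleles without any edit were rare, at most 1.33% of cells, for intBC C.

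Cut site 2 of intBC B split the clone into 2 groups. The deletion of 2 bases at 166 was carried by 1229 cells (the 2-base group) and the excision of cut sites 2 to 3 by 847 cells (the 54-base group), and another 55 cells with intBC B carried neither. The remaining 353 cells lacked intBC B. This character was chosen after the values were seen, so the groups serve as a description, and no test was made between them.

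The other intBCs followed this division closely. At intBC A, the deletion of 50 bases at 113 was carried by all 1148 cells of the 2-base group in which intBC A was detected. In the 54-base group it was carried by 0 of 772 cells, of which 3 cells would make 0.389%. At intBC H, the deletion of 53 bases at 167 was carried by all 496 cells of the 2-base group and 0 of 579 of the other, where 537 cells (92.7%) carried the deletion of 6 bases at 164. The deletion of 51 bases at 112 in intBC C was found in 726 of 791 cells (91.8%) of the 54-base group and in 3 of 912 cells of the 2-base group. These 3 intBCs thus held indels that nearly every cell of 1 group carried and nearly no cell of the other.

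IntBCs E and G divided in the same way. In intBC E, the excision of cut sites 2 to 3 was carried by 670 of 744 cells (90.1%) of the 54-base group and by 11 of 869 cells (1.27%) of the 2-base group. In intBC G, the insertion of 1 base at 111 was carried by 683 of 728 cells (93.8%) of the 2-base group and by 0 of 623 cells of the other. The 54-base group carried instead the excision of cut sites 1 to 2 in 411 cells (66.0%) and a deletion of 11 bases at 112 in 209 cells (33.5%).

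IntBCs D and F did not divide at their most frequent state. The excision of intBC D was fixed in both groups, and the deletion of 6 bases at 218 in intBC F was carried by 85.6% of the 2-base group and 81.1% of the 54-base group.

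Some characters had few states in 1 group and many in the other. Cut sites 1 and 2 of intBC A held 1 and 2 states in the 2-base group and 28 and 71 in the 54-base group, where they were edited in 82.8% and 70.2% of cells. The reverse was seen at cut sites 1 and 2 of intBC C, with 51 and 87 states in the 2-base group (56.1% and 77.5% edited) and 3 and 3 in the 54-base group, where both were edited in all cells. Cut site 3 of intBC E likewise held 54 states in the 2-base group (53.7% edited) and 4 in the 54-base group (100%). The many states of these characters over the whole clone thus came mostly from 1 of the groups.

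At cut sites that stayed partly uncut in both groups, the shares edited differed between them as well. Cut site 3 of intBC A was edited in 23.0% of the 2-base group and 63.6% of the 54-base group. Cut site 1 of intBC D was edited in 59.7% and 26.9%, and cut site 1 of intBC B in 31.8% and 64.7%. Over the 8 intBCs other than B, however, the groups were close, at 76.2% and 73.6% of detected characters. Per cell, a median of 14 of 18 detected characters was edited in the whole clone, with a range from 4 to 24, and 69 cells were edited at every character they reported.

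Counting each indel once per intBC, 35 indels of the other 8 intBCs were carried by at least 100 cells. Among their cells that belonged to either group, 20 of these indels had over 99% in 1 group, 9 in the 2-base group and 11 in the 54-base group. Carriers that lacked intBC B or had another call at its cut site 2 were left out of this share. Indels found in both groups included the insertion of 1 base at 111 of intBC D (5.25% and 20.1% of cells) and the excision of cut sites 2 to 3 of intBC G (41.6% and 12.2%). Pairs of cells, compared over the characters of the 8 other intBCs that both reported, carried the same indel at 43.8% of characters within the 2-base group and at 38.2% within the 54-base group. Between the groups, the value was 14.6%.

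The groups were of unequal size in the libraries. Of the cells that carried either deletion in intBC B, the 2-base group made up 47.6% (43.4 to 51.9%, n = 552) in plate 00 and 53.5% (49.7 to 57.3%, n = 695) in plate 01. In plates 10 and 11 it made up 66.1% (61.2 to 70.7%, n = 395) and 76.7% (72.5 to 80.6%, n = 434). The libraries of the first-split plates did not overlap. The 5 states with the largest gaps between the first-split plates, given below, are therefore also given within the groups.

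IntBCs were missing to very different extents. A was missing from 8.05% of cells, B from 14.2%, C from 18.4% and D from 21.2%. E, F and G were missing from 24.9%, 32.0% and 35.4%, H from 51.2% (49.3 to 53.2%) and I from 73.6% (71.8 to 75.3%). The UMIs did not follow this order: where it was detected, intBC I rested on a median of 12 UMIs and intBC E, present in more cells, on 7. Cells that lacked intBC I held a median of 56 UMIs, and cells that had it held 66 UMIs in the other intBCs.

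The absence of intBC I went with the groups. It was missing from 1224 of the 1229 cells of the 2-base group (99.6%, 99.1 to 99.9%) and from 24.9% (22.0 to 28.0%) of the 54-base group, and the share in the 2-base group lay between 99.2% and 99.7% in every library. The 2-base group had fewer UMIs per cell, a median of 57 against 74, and its cells reported a median of 6 intBCs against 8. IntBCs H, C and E were also missing more often from the 2-base group, at 59.6%, 25.8% and 29.3%, against 31.6%, 6.61% and 12.2%, and this order held in each library. IntBC G was missing from 40.8% against 26.4% over all cells, but the order turned in plates 10 and 11, with 36.0% and 35.1% of the 2-base group against 45.5% and 46.5% of the 54-base group. IntBC A was missing from 6.59% and 8.85%. The part of depth in these differences was not tested.

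**Figure D3:**
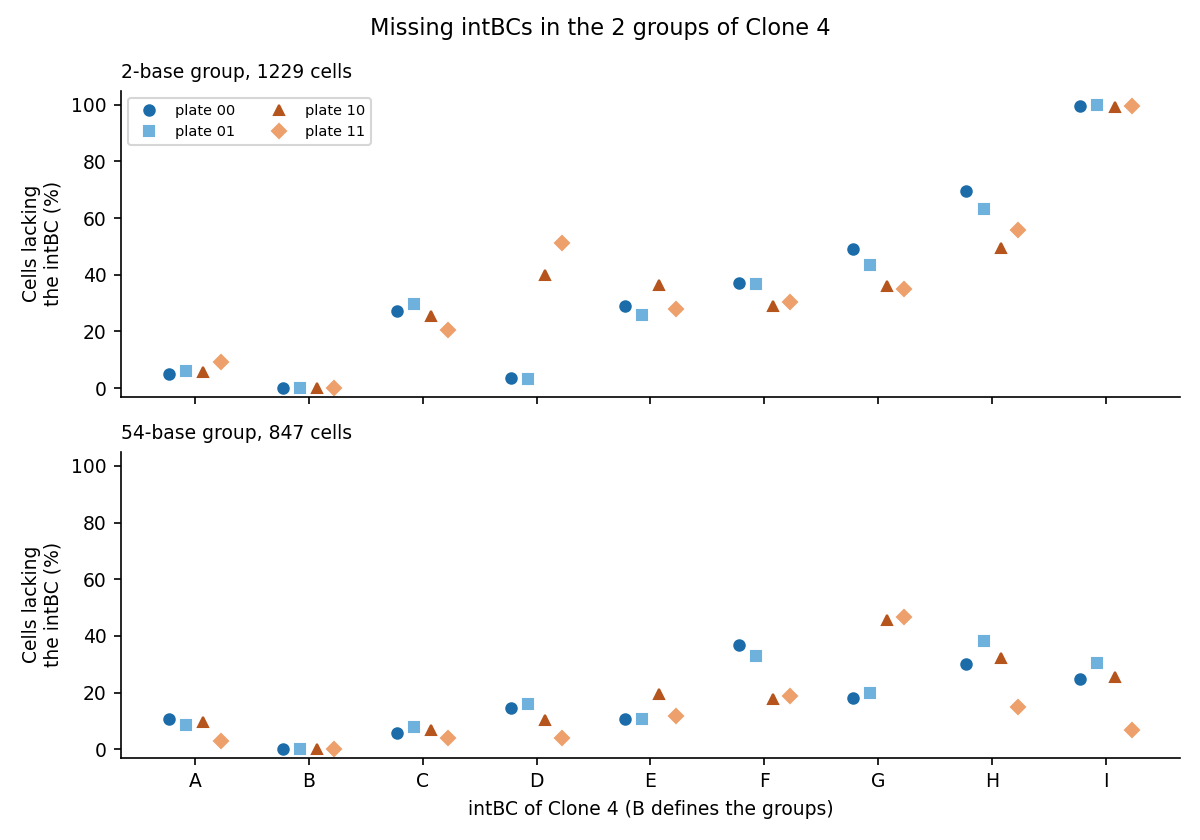
Percent of cells that lack each intBC of Clone 4 in the 2-base group (upper panel, 1229 cells) and the 54-base group (lower panel, 847 cells), with 1 symbol per library. IntBC I is missing from 99.2% to 99.7% of the 2-base group in every library, and intBC D is missing from the 2-base group in plates 10 and 11 (39.8% and 51.4%) far more often than in plates 00 and 01 (3.42% and 3.23%). IntBC B is at 0 because it defines the groups.

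Within the groups, some intBCs were missing more often on 1 side of the first split. IntBC D was absent from 3.42% and 3.23% of the 2-base group in plates 00 and 01 and from 39.8% and 51.4% in plates 10 and 11, whereas in the 54-base group it was absent from 14.5%, 16.1%, 10.4% and 3.96%. IntBC G was absent from 18.0% and 19.8% of the 54-base group in plates 00 and 01 and from 45.5% and 46.5% in plates 10 and 11, while in the 2-base group its order was the opposite, with 49.0% and 43.3% against 36.0% and 35.1%. IntBC F was absent from 36.7% and 32.8% of the 54-base group in plates 00 and 01 and from 17.9% and 18.8% in plates 10 and 11. In the 2-base group of plates 10 and 11, intBC D was absent from 238 of the 291 cells (81.8%) that carried the excision of cut sites 2 to 3 in intBC G. It was absent from 3 of the 75 cells (4.00%) there with a deletion of 5 bases at 115 in intBC C. Both states were picked after the values were seen.

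Several intBCs were absent from every cell that shared an indel elsewhere. For each intBC, all states of the other 8 in at least 50 cells were searched for the one whose cells lacked it most often, so the values below are the extremes of 75 to 85 states each. All 107 cells with the deletion of 113 bases at 110 in intBC E, which spans the 3 cut sites, lacked both intBC G and intBC H, in plates 00, 01, 10 and 11 alike (28, 38, 21 and 20 cells). These cells held a median of 68 UMIs, against 61 in the whole clone and 74 in the 54-base group, to which all 70 of them with a called group belonged.

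The same was seen for 3 more intBCs. All 94 cells with the deletion of 70 bases at 155 in intBC F lacked intBC E (54 cells in plate 10 and 40 in plate 11). All 69 cells with a deletion of 35 bases at 92 in intBC B lacked intBC D (27, 38 and 4 cells in plates 00, 01 and 10). All 168 cells with the insertion of 1 base at 111 in intBC C lacked intBC I, and of those with a called group all were in the 2-base group. IntBC C was absent from 47 of 51 cells (92.2%) with a deletion of 14 bases at 215 in intBC B, and intBC B from 44 of 52 cells (84.6%) with a deletion of 9 bases at 164 in intBC F. For intBCs A and F the highest values were lower, 44.4% and 57.1%.

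States were compared between the first-split plates. Of the 188 states carried by at least 20 cells, with an indel over several cut sites counted at each, 60 (31.9%) were listed in 1 first-split plate only, 42 in plate 0 and 18 in plate 1. Over the 9 clones with at least 20 cells in each first-split plate, 31.0% of such states were so confined, so Clone 4 lay near the share of all clones. In 151 of the 188 states (80.3%) the shares of both libraries of 1 first-split plate lay above both of the other. Over the 9 clones this held for 80.4% of states, so Clone 4 again lay near the share of all clones. Counted once per intBC, 49 of 147 indels were confined, and no share over the other clones is given for this count. The second split confined none: of the 129 states in at least 20 cells of plates 00 and 01, 0 were listed in 1 of these plates only. The same held for 0 of 86 in plates 10 and 11. No share over the other clones is given for the second split, so these counts are not read as particular to Clone 4.

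The 5 states with the largest gaps between the first-split plates came from intBCs I, G and E. The insertion of 3 bases at 167 in intBC I was carried by 0 of 224 and 0 of 233 cells with the intBC in plates 00 and 01, of which 3 cells would make 1.34% and 1.29%. It was carried by 95 of 103 cells (92.2%) in plate 10 and 80 of 96 cells (83.3%) in plate 11. IntBC I was detected nearly only in the 54-base group, and there the insertion was carried by 0 of 217, 0 of 225, 92 of 100 and 78 of 94 cells in plates 00, 01, 10 and 11.

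In intBC E, different indels took the same character in the 2 plates. The excision of cut sites 1 to 2 was carried by 37.4% and 34.5% of cells with the intBC in plates 00 and 01. In plates 10 and 11 it was carried by 0 of 329 and 0 of 397 cells, of which 3 cells would make 0.912% and 0.756%. The insertion of 1 base at 166 was carried by 0 of 516 and 2 of 623 cells in plates 00 and 01 and by 43.8% and 58.2% in plates 10 and 11. Among cells with a called group, both indels were confined to the 2-base group, where the excision took 73.3% and 67.0% of cells in plates 00 and 01 and the insertion 69.9% and 82.1% in plates 10 and 11. The gaps were wider within the 2-base group than over all cells.

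In intBC G, the insertion of 1 base at 111 was carried by 36.0% and 37.5% of cells in plates 00 and 01 and by 73.0% and 82.8% in plates 10 and 11. Here the gap shrank within the 2-base group, to 92.5% and 84.4% against 98.8% and 100%. The excision of cut sites 2 to 3 in intBC G was carried by 13.2% and 5.73% of cells in plates 00 and 01 and by 55.0% and 66.2% in plates 10 and 11. It ran in opposite directions in the groups, with 6.72% and 1.42% against 71.3% and 79.6% in the 2-base group, and 20.3% and 10.8% against 0 of 73 and 0 of 54 cells in the 54-base group.

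**Figure D4:**
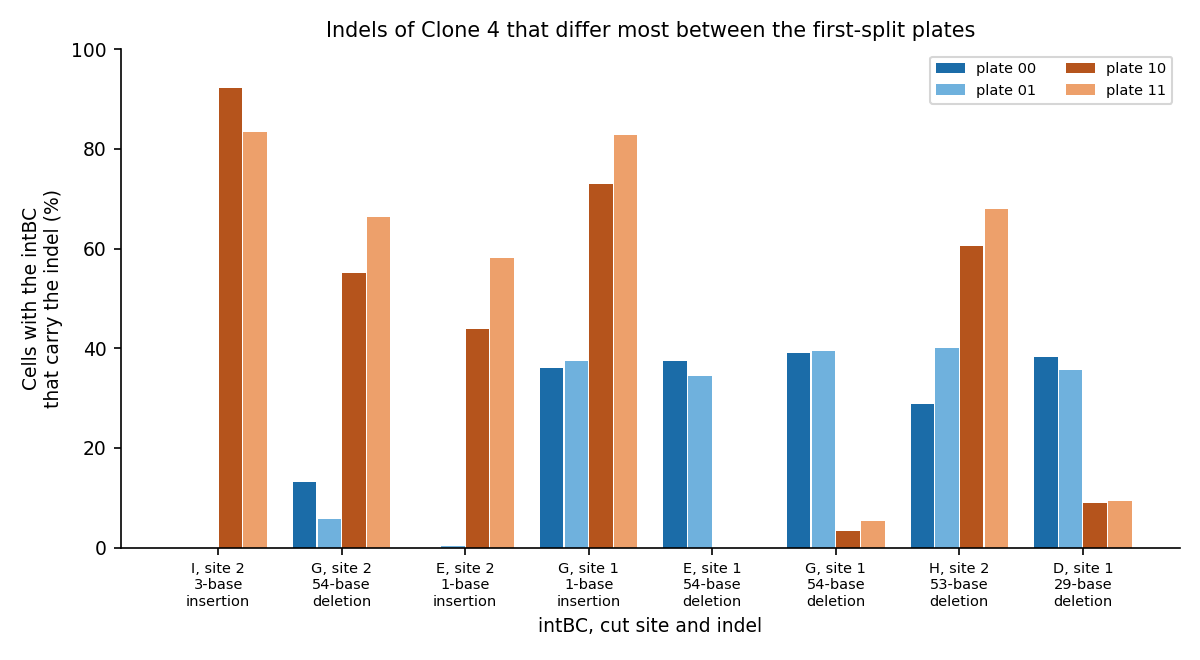
Percent of cells with the intBC that carry the indel, for the 8 indels of Clone 4 with the largest gaps between the first-split plates, with 1 bar per library. The insertion in intBC I (92.2% and 83.3% in plates 10 and 11) and the excision in intBC E (37.4% and 34.5% in plates 00 and 01) are each listed on 1 side of the split only.

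Smaller states were confined as well. In plate 1 only, a deletion of 8 bases at 166 of intBC G was carried by 20.9% and 11.8% of cells in plates 10 and 11, and a deletion of 5 bases at 115 of intBC C by 10.9% and 10.6%. In plate 0 only, a deletion of 5 bases at 220 of intBC H was carried by 17.6% and 15.7% of cells in plates 00 and 01, and a deletion of 19 bases at 155 of intBC I by 9.82% and 21.9%. Other states ran through both plates at similar levels. The deletion of 113 bases at 110 of intBC E was carried by 5.43%, 6.10%, 6.38% and 5.04% of cells, and the deletion of 50 bases at 112 of intBC F by 6.51%, 6.51%, 6.23% and 5.19%. These 6 states were picked after their values were seen.

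Sister plates were closer but not equal. The largest gaps between plates 00 and 01 were in the deletion of 6 bases at 164 of intBC H (63.2% and 46.7%) and in a deletion of 22 bases at 155 of intBC F (17.0% and 4.83%), which was listed in neither plate 10 nor plate 11. Between plates 10 and 11 the largest was in the insertion of 1 base at 166 of intBC E (43.8% and 58.2%). Within the 2-base group, pairs of cells from plates 00 and 01 carried the same indel at 51.2% of characters and pairs from plates 10 and 11 at 44.5%, against 39.0% for pairs across the first split. In the 54-base group the values were 39.6% and 46.8%, against 34.4% across the first split.

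Most cells had a combination of calls of their own. With missing intBCs counted as a call, 2131 different strings were found over the 27 characters, and 1925 cells (77.5%) had a string that no other cell had. Of the 206 strings carried by at least 2 cells, 41 were found in both libraries of 1 first-split plate and 1 in both first-split plates. The latter was also the largest, with 33 cells (13, 17 and 3 in plates 00, 01 and 10) that reported intBCs A, B, C, E and F. The next largest held 11 cells each, 1 of them in plates 10 and 11 (5 and 6 cells) and 1 in plates 00 and 01 (5 and 6 cells).

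A small number of uncut calls had flanks other than those of the unedited site, 175 of 11570 (1.51%). Of these, 65 were at cut site 3 of intBC F and were flanked by A bases only, with 2, 0, 40 and 23 cells in plates 00, 01, 10 and 11. Of the 65 cells, 62 carried a deletion of 4 bases at 161 at cut site 2 of the same intBC. These calls were kept as uncut.

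Compared with the other clones, Clone 4 stood out by the combination of high editing and many states. With 75.0% of characters edited it ranked 6 of 11, and the 5 clones above it (Clones 5, 7, 8, 9 and 11, 84.1 to 99.8%) had medians of 1 to 4 states per character. Among 100 detected cells, a character of Clone 4 held a median of 12.4 states, the second highest of the 10 clones in which this could be computed, after Clone 6 with 14.4 and ahead of Clone 2 with 11.4. Clones 8 and 9 had nearly all their cells in plates 10 and 11, so their values rest on 1 side of the first split.

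**Figure D5:**
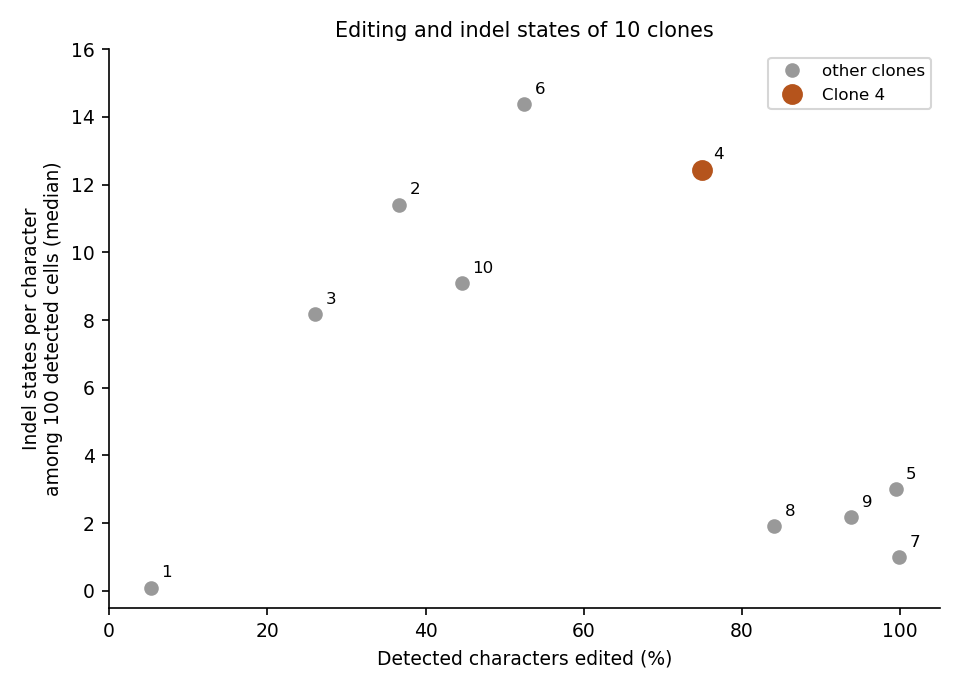
Median number of indel states per character expected among 100 detected cells against the percent of detected characters edited, 1 point per clone, for the 10 clones with at least 100 cells at every character. Clone 4 lies at 75.0% and 12.4 states, and the clones with more editing lie at 3 states or fewer.

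Clones 2, 3 and 6 also kept many states, with medians of 109, 82.5 and 58 per character over 8401, 7289 and 1705 cells, and were less edited. Clone 4 exceeded Clone 2 by 37.5 ± 1.12 percentage points (mean and SD over 4 libraries), Clone 3 by 48.7 ± 1.20 and Clone 6 by 22.3 ± 1.63, and was higher in 4 of 4 libraries each time. The exact two-sided sign-flip permutation test gave p = 0.125 in each case, 0.125 after Benjamini-Hochberg adjustment over the 3 clones. That is the smallest value that 4 libraries allow, so no test of this design could pass 0.05.

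Clone 4 lost less to deletions over all 3 cut sites than Clones 3 and 6, and more to deletions over 2 than Clones 2, 3 and 6. Deletions over 3 cut sites held 3.61% of its edited characters, against 18.8% in Clone 3 and 20.9% in Clone 6, while Clone 2 was close to it at 3.51%. Deletions over 2 cut sites held 52.5%, against 26.2%, 23.0% and 21.3% in Clones 2, 3 and 6. Its median share of cells that lack an intBC was 24.9%, with 26.2%, 16.8% and 30.1% in Clones 2, 3 and 6. These shares were not tested between clones. A deletion carried by every cell with an intBC, as in intBC D, counts in the shares of edited characters for each of those cells.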

How the data were processed

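Clone 4 was measured in 4 Target Site amplicon libraries from 10x Genomics cDNA, 1 per final plate. The UMI counts and read counts were deposited as 1 row per cell and intBC. The authors used Cell Ranger 2.0.1 (version from the submitters' processing notes), collapsed reads by UMI, removed shallow UMIs and cells, aligned to the Target Site reference, called 1 allele per cell and intBC, called clones and removed doublets. A UMI rested on a mean of 171 reads, so the number of UMIs, not of reads, limits the calls: an allele with few UMIs can be wrong, and an intBC can be missed.

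A state is the full indel string with its flanks at 1 cut site, and calls marked as uncut were counted as uncut. An indel listed at several cut sites was counted at each, and intBCs without a row were missing. Shares are of cells with the intBC. States at 100 cells are the expected number without replacement. Exact intervals, permutation tests and plots used Python 3.11.15, numpy 2.4.6, pandas 2.3.3, scipy 1.17.1 and matplotlib 3.10.9. The scripts were tested on simulated data.

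Named were all 9 intBCs, the most frequent state of each character, the 5 states in most cells, the indels over several cut sites in at least 5% of cells, the leading alleles, the states with the highest share lacking each intBC, the 5 states with the largest gap between first-split plates and the 3 largest groups of identical cells. The members and these lists were chosen with earlier results of these data known. Reconstructed trees of 2 other clones were not used here.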

Additional observations from a re-analysis of the deposited data

How the results depend on the processing

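The UMIs per cell, the single library per plate and the reading of the plate digits limit these results. With missing characters counted as uncut, 51.7% of characters were edited, and with indels over several cut sites set to missing 56.8%. The median of 50 states per character was 24 for states in at least 2 cells, 13 for at least 5 cells and 12.4 among 100 detected cells. Counted once per allele, indels over several cut sites were 38.5%. The median share of cells lacking an intBC was 46.1% at 5 or more UMIs per allele and 20.7% in the 1595 cells with at least 50 UMIs. States confined to 1 first-split plate numbered 98 of 257 at 10 or more cells and 20 of 89 at 50 or more, and 0 of 188 with the plate digits in the other order. Leaving out each library in turn gave 74.6 to 75.5% edited, 35 to 45 states, 54.9 to 57.4% over several cut sites and 24.1 to 27.1% lacking an intBC. The differences between clones and between first-split plates kept their direction under every alternative run. After seeing the data, uncut calls with other flanks were left out (75.3% edited) and indels were counted once per intBC (49 confined). No paired analysis was possible because each plate has 1 library, so replicate numbers pair no samples across plates; the comparison of clones was itself made within libraries.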
